A study of Gallus gallus with 7 samples.

Results

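SOX10 (ENSGALG00000012290, 1 of 24881 genes in the deposited gene table) was examined together with the 13 chromatin regions, of 25469 in the deposited chromatin table, that lie on chromosome 1 within 100 kb of its start or end. The gene spans 51089596 to 51098755 of chromosome 1 (galGal5, plus strand). By position, 2 of the 13 regions overlap SOX10 exons, 5 lie upstream and 6 downstream. The regions were chosen by position alone, but the gene itself was selected on its measured sox10 pull-down values over input. Sox10 against input is therefore a description, and nothing is read from its calls.

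SOX10 is a transcription factor of the SOXE group, which binds DNA through an HMG box. In the neural crest of vertebrates it is switched on around the time the cells leave the neural tube, and it is needed for glia, pigment cells and the enteric nervous system. TFAP2B belongs to the AP-2 family of transcription factors, which also act in the neural crest. Enhancers of SOX10 have been described in chick and mouse at various distances from the gene.

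All libraries came from vagal neural crest cells of wild-type chicken embryos, sorted by a citrine reporter. The 1 RNA library was made from NC2-positive cells at Hamburger and Hamilton stage 10 (HH10), after electroporation of NC2:citrine at HH4. The 6 chromatin libraries were made from E2-positive cells at HH18, after electroporation of E2:citrine at HH8, and comprise 2 sox10 pull-downs, 2 tfap2B pull-downs and 2 inputs. For the pull-downs the factor itself was electroporated with an Avi tag, together with the biotin ligase BirA, and its chromatin was caught on streptavidin beads. The signal is thus that of an introduced, tagged factor. A mock pull-down, with BirA but no tagged factor, is not among these libraries. The sources used here do not say whether the 2 libraries of a group came from separate embryos, so the spread between them may be technical.

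The pull-down libraries held 1366132 to 3498728 reads in the listed regions and the inputs 7989029 and 13921317. Chromatin values are scaled reads, that is, whole reads multiplied by 1 constant per library. The median region on placed chromosomes (13888 regions, called placed regions below) had 121 to 141 scaled reads in the pull-downs, 106 in input 1 and 206 in input 2. The RNA library held 28777461 counts. Ensembl IDs in the files are not paired with symbols, and 0 of 24881 matched the RefSeq gene table. Only the IDs of SOX10 and TFAP2B were set beforehand. The labelled cell type was checked against no marker other than SOX10, and neighbouring genes are named by ID. In RefSeq's chicken assembly GRCg7b, PICK1 and the lncRNA LOC107053682 precede SOX10 along the chromosome and POLR2F, C22orf23, MICALL1 and EIF3L follow it.

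The SOX10 gene model has 4 exons of 147, 429, 266 and 2485 bp, separated by introns of 1088, 4442 and 303 bp. The first exon-overlapping region, 51090792 to 51091292, contains the whole of exon 2 (51090831 to 51091259), and its centre lies 3 bp from that of the exon. The second, 51096274 to 51096774, starts 3 bp inside exon 4 (51096271 to 51098755) and lies wholly within it. No listed region lay inside an intron without touching an exon, and none touched exon 1 or exon 3. A place with no listed region has no value in the table and says nothing about its signal.

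By the mean of the 2 sox10 libraries, the exon regions carried the highest sox10 signal of all placed regions. At exon 4, sox10 libraries 1 and 2 gave 4911 and 21446 scaled reads, tfap2B libraries 1 and 2 gave 6041 and 1025, and inputs 1 and 2 gave 91.7 and 33.7. It ranked 1 of 13888 in both sox10 libraries, 3 in tfap2B library 1 and 14 in tfap2B library 2. Both pull-downs were thus far above the inputs, and tfap2B library 1 lay above sox10 library 1.

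At exon 2, in the same order of libraries, sox10 gave 2413 and 11125, tfap2B 3666 and 691, and input 163 and 0.363. The last value is counted as 1 read, the lowest the table lists for input 2, and 7.33% of placed regions have it there. It may be a floor set in place of no reads. Its rank was 3 and then 2 for sox10, 6 and then 31 for tfap2B. At both exons the sox10 and tfap2B libraries overlapped, because sox10 library 1 fell between the 2 tfap2B libraries.

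**Figure D1:**
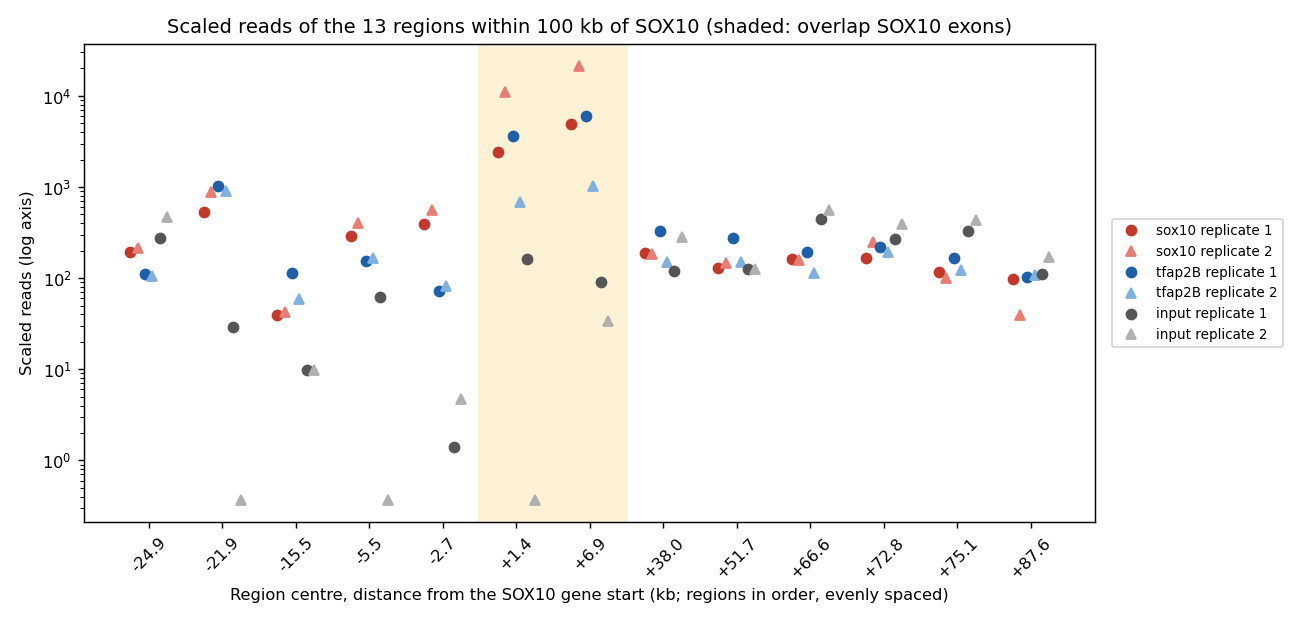
Scaled reads (log axis) of the 13 regions in each of the 6 libraries, in chromosome order; tick labels give the distance of the region's centre from the SOX10 start in kb, and shading marks the 2 regions that overlap SOX10 exons. The exon regions reach 691 to 21446 in the pull-downs, while no pull-down value of the other 11 regions exceeds 1022.

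Shares are given here of the reads that fell in listed regions, since the total reads of each library are not known here. Together the 2 exon regions took 0.241% of such reads in sox10 library 1 (95% Wilson interval 0.235 to 0.247%). In sox10 library 2 they took 1.02% (1.00 to 1.04%). In the tfap2B libraries their share was 0.310% (0.304 to 0.316%) and 0.0586% (0.0547 to 0.0628%). In the inputs it was 0.00459% (0.00415 to 0.00509%) and 0.000675% (0.000552 to 0.000826%). Even the lowest pull-down share lay above the highest input share, though listed regions may hold an unlike part of a pull-down and of an input. These intervals cover counting error only, since reads without molecular identifiers are not independent molecules.

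Exon 4 outnumbered exon 2 in every pull-down. Its reads exceeded those of exon 2 by 2.04 times in sox10 library 1 (exact 95% interval 1.93 to 2.15) and 1.93 times in sox10 library 2 (1.86 to 2.00). In tfap2B library 1 the ratio was 1.65 (1.58 to 1.71), and in tfap2B library 2 it was 1.48 (1.29 to 1.71). In input 1 the order was the other way round, with 132 reads at exon 4 and 235 at exon 2 (ratio 0.562). Input 2 had 93 and 1 reads, the latter its lowest value and possibly a floor.

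Between the 2 pull-down libraries of a factor, the exon regions differed more than any of the other 11 regions did. Sox10 library 2 exceeded sox10 library 1 by 4.61 times at exon 2 and 4.37 times at exon 4, gaps of 2.20 and 2.13 on the log2 scale. Only 0.259% and 0.302% of placed regions had a gap as large in either direction. In the other 11 regions the gap ranged from -1.27 to 0.70. Tfap2B library 1 exceeded tfap2B library 2 by 5.30 times at exon 2 and 5.90 times at exon 4. Gaps as large as that at exon 2 occurred in 1.75% of placed regions, and those of the other 11 regions ran from -1.12 to 0.16. The inputs did not follow this pattern. Their gap was -6.91 at exon 2 and -1.42 at exon 4, beside -5.53 at 51083893 and -4.47 at 51067475. With 2 libraries per group there is no further library to say which of a pair is typical.

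**Figure D2:**
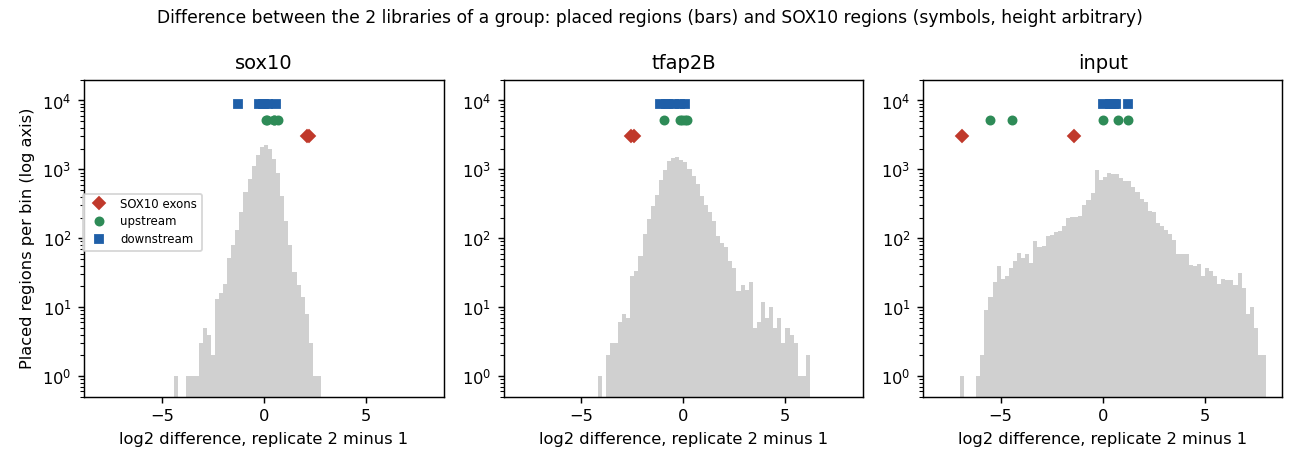
Log2 difference between the 2 libraries of each group (replicate 2 minus replicate 1, horizontal axis) over all placed regions (bars, number per bin, log axis), with the 13 SOX10 regions as symbols at an arbitrary height. The SOX10 exon regions lie at 2.13 and 2.20 for sox10 and at -2.56 and -2.41 for tfap2B, outside the range of the other 11 regions in both.

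Large gaps between the sox10 libraries were not particular to SOX10 among the 5 strongest placed regions. Of the 5 placed regions with a sox10 mean of at least 2000 scaled reads, the 2 SOX10 exon regions ranked 1 and 2, with means of 13179 and 6769. The other 3 were also higher in sox10 library 2, by 2.65 times at 153949552 of chromosome 1, 4.95 times at 4195087 of chromosome 14 and 2.04 times at 49766513 of chromosome 2.

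TFAP2B itself, ENSGALG00000016680 on chromosome 3, was taken for comparison as the gene of the other tagged factor. In it, 5 listed regions overlap exons. They had 723 to 18945 scaled reads in tfap2B library 1, 329 to 7940 in tfap2B library 2, and 98.3 to 339 in the sox10 libraries. The highest sox10 values, 323 and 339, were both at 108710618, where tfap2B was also highest. They lay above the placed medians of 124 and 122. Tfap2B and sox10 did not overlap in any of the 5 regions, and tfap2B library 1 exceeded library 2 by 1.99 to 2.41 times. Over all tested regions, both sox10 libraries lay below both tfap2B libraries in 21.9%. At the SOX10 exons, by contrast, the tfap2B libraries reached 691 to 6041. Both genes were picked with these values known, so the contrast is a description.

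**Figure D3:**
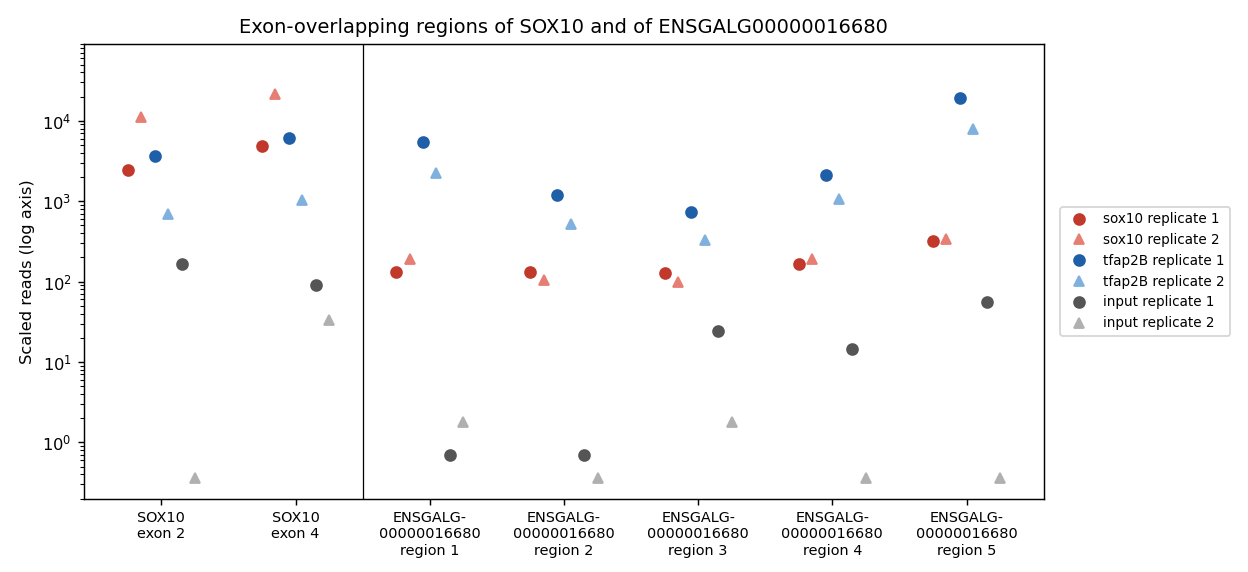
Scaled reads (log axis) in each library for the 2 regions over SOX10 exons (left of the line) and the 5 regions over exons of ENSGALG00000016680, the TFAP2B gene (right). Tfap2B libraries are high at both genes, while the sox10 libraries are high at SOX10 and lie at 98.3 to 339 at the other gene.

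The tagged factors were introduced on plasmids, and the table does not separate reads of chromosomal exons from reads of an introduced copy of the same coding sequence. These origins cannot be told apart at the 2 SOX10 exon regions, nor, for the tfap2B construct, at the 5 TFAP2B exon regions. The labels do not give the constructs' sequence. This limit does not apply in the same way to the 11 regions outside the gene, which hold no SOX10 exon.

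Upstream of SOX10, the 2 regions nearest to the gene had more sox10 than tfap2B signal. The nearest, 51086640 to 51087140, is centred 2.71 kb before the SOX10 start and lies in no gene of the table. Sox10 gave 388 and 555 scaled reads there, tfap2B 72.5 and 81.2, and input 1.39 and 4.72. Both sox10 libraries thus lay above both tfap2B libraries, an order found in 25.9% of all tested regions. Both inputs were close to the floor, with 2 and 13 reads.

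The next region, 51083893 to 51084393, is centred 5.45 kb before the start and is also intergenic. Sox10 reached 288 and 405, tfap2B 156 and 167, and input 61.8 and 0.363. The groups of pull-downs again did not overlap, but the difference was smaller. The inputs disagreed, with 89 reads in input 1 and, in input 2, the lowest value of that library, counted as 1.

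The other 3 upstream regions showed no common order. The region 51073840 to 51074340, centred 15.5 kb before the start, was low throughout (sox10 39.7 and 42.1, tfap2B 113 and 58.3, input 9.73 and 9.80). The region 51067475 to 51067975, centred 21.9 kb before the start and 0.338 kb from the start site of ENSGALG00000038935, was high for both factors (sox10 537 and 873, tfap2B 1022 and 910, input 29.2 and 0.363). It was the strongest flanking region for both factors, with placed ranks of 48 and 26 for sox10 and of 16 and 20 for tfap2B. ENSGALG00000038935 itself had 0 counts at HH10. The region 51064413 to 51064913, centred 24.9 kb before the start and 0.394 kb from the start site of ENSGALG00000041823, had more input than pull-down signal (sox10 195 and 215, tfap2B 110 and 106, input 276 and 466). There both inputs exceeded all 4 pull-downs, and both sox10 libraries lay above both tfap2B libraries, the same order as in the regions nearest to the gene.

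Downstream, none of the 6 regions stood out in the pull-downs. The last exon region was followed by 30.5 kb with no listed region, the longest such stretch between members. The region 51127304 to 51127804 is centred 38.0 kb from the SOX10 start and overlaps an exon of ENSGALG00000012265 by 174 bases. Its sox10 libraries gave 191 and 185 scaled reads, its tfap2B libraries 328 and 150, and its inputs 119 and 280. There the 3 groups overlapped. At 51141066 to 51141566 (51.7 kb, just outside ENSGALG00000012296, whose exon it touches by 3 bases as listed) sox10 gave 130 and 147, tfap2B 276 and 152, and input 126 and 125. All 4 pull-downs lay above both inputs there, sox10 library 1 by little. Relative to each library's placed median, input 1 (1.18) lay above sox10 library 1 (1.05).

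On the deposited scale, inputs were the highest libraries in the other 4 downstream regions. Relative to each library's placed median this order did not hold throughout. At 51162196 sox10 library 2 (2.04) then lay above input 2 (1.91), and at 51176899 tfap2B library 2 (0.897) lay above input 2 (0.837). At 51155935 to 51156435 (66.6 kb, wholly in an exon of ENSGALG00000019312) sox10 gave 161 and 159, tfap2B 192 and 115, and input 441 and 562. At 51162196 to 51162696 (72.8 kb, 263 bases in an exon of ENSGALG00000012312) the sox10 values were 166 and 248, those of tfap2B 217 and 194, and those of input 266 and 393. At 51164461 to 51164961 (75.1 kb, 419 bases in an exon of ENSGALG00000044240) sox10 gave 118 and 101, tfap2B 166 and 123, and input 331 and 432. At 51162196, input 1 lay only just above sox10 library 2. In the last member, 51176899 to 51177399 (87.6 kb, intergenic), the sox10 values were 97.3 and 39.8, those of tfap2B 103 and 108, and those of input 110 and 173, so that input 1 lay only just above tfap2B.

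In all, 5 of the 6 downstream regions overlap or touch an exon of another gene and have their centre within 0.4 kb of a start site, whereas the 2 upstream regions nearest to SOX10 have no other gene's start site nearer than that of SOX10. The window held more listed regions than most. Around the 2688 genes of chromosome 1 the median was 3 regions within the same distance, and 3.72% of genes had 13 or more. Just outside the window, the nearest regions lay 127 kb upstream, at 50962202, and 120 kb downstream, at 51219038. Their sox10 signal was 168 and 126 upstream and 76.9 and 117 downstream, within the range of the flanking members.

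Sox10 and tfap2B were compared over 25281 regions with limma, in a fit of the 4 pull-downs alone, to see which regions favour 1 factor over the other. Of the 11 flanking regions, 1 was higher in sox10 and 0 were lower. Of all regions tested, 2.58% were called, 2.47% higher and 0.103% lower. All 13 regions are placed. A fit of placed regions alone called 1267 of at most 13888, a larger share, with 1 of the 13 higher and 0 lower. In the main fit, at an unadjusted p under 0.05, the flanking counts were 3 and 0. The share of all regions at that threshold was not taken, so nothing is read from these counts. The edgeR and DESeq2 tests also called 1 higher and 0 lower among the 13 regions, beside 578 and 1070 calls over the table. The called region was 51086640, 2.71 kb before the gene. Its log2 difference was 2.58 ± 0.36 (SE, n = 2 libraries per group, limma adjusted p = 0.0202), with a 95% interval of 1.77 to 3.39, and both sox10 libraries were higher. A difference at least as high was found in 1.72% of regions. With the inputs added to the fit, limma called none of the 25281 regions (1059 at an unadjusted p under 0.05, DESeq2 and edgeR not run on that fit here), and the adjusted p of this region became 0.998. Without sox10 library 1 or library 2 it was 0.157 and 0.460, and limma called no region of the table (2016 and 1325 at an unadjusted p under 0.05). Without tfap2B library 1 the fit called 4 of the 13 regions higher, and without tfap2B library 2 it called 3 higher and 2 lower. Over the whole table those fits called 1812 and 7336 regions, against 651 with all 4 pull-downs, so calls rose well beyond these regions.

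At 51083893 the log2 difference between sox10 and tfap2B was 1.08 ± 0.34 (SE, limma adjusted p = 0.183), which did not pass. Its 95% interval ran from 0.31 to 1.85. At 51067475 the difference was -0.49 ± 0.36 (SE, limma adjusted p = 0.550), with an interval of -1.30 to 0.32 that holds both directions. Among all 5 upstream regions, 3 had both sox10 libraries above both tfap2B libraries and 2 had both below. Downstream, 0 were above, 3 below and 3 overlapped. Over all tested regions, 47.9% did not overlap, 25.9% with sox10 higher and 21.9% with sox10 lower. The median log2 difference of the 11 flanking regions was -0.24, with 0.91 upstream and -0.31 downstream. It was 0.05 over all tested regions and -0.16 over the placed ones among them, the closer comparison since all members are placed.

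At the exons, described without a test, sox10 exceeded tfap2B by 1.70 at exon 2 and 2.04 at exon 4 on the log2 scale, with SEs of 0.86 and 0.90. These differences rested on single libraries. They were 2.90 and 3.32 without tfap2B library 1 and 2.80 and 3.11 without sox10 library 1. Without tfap2B library 2 they were 0.50 and 0.76, and without sox10 library 2 they were 0.60 and 0.98. The ratio of sox10 to tfap2B was 0.658 at exon 2 and 0.813 at exon 4 between libraries numbered 1. Between those numbered 2 it was 16.1 and 20.9. The numbers are names only and do not pair the libraries.

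**Figure D4:**
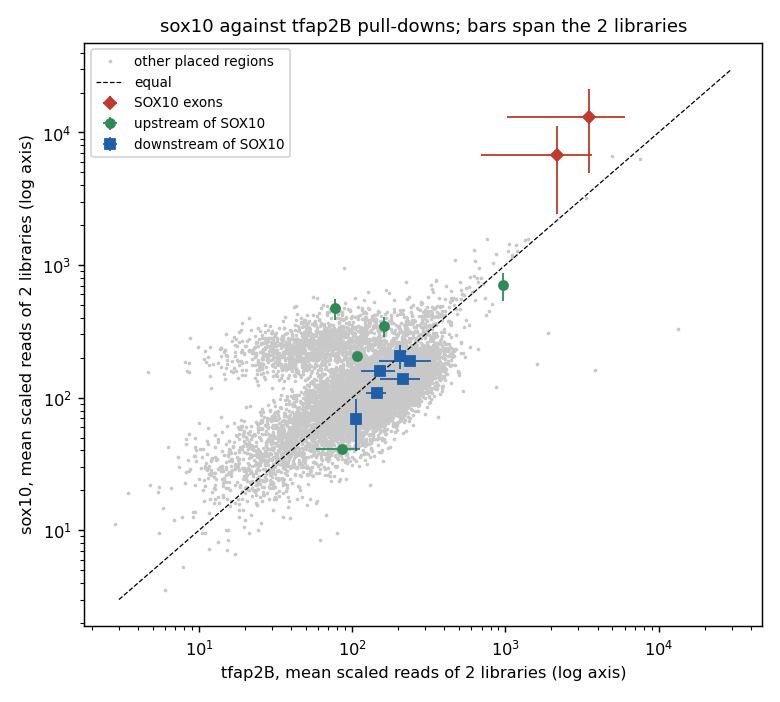
Mean scaled reads of the 2 tfap2B libraries (horizontal) and the 2 sox10 libraries (vertical), both on log axes, for all placed regions (grey) and the 13 SOX10 regions (symbols, with bars that span the 2 libraries). The region 2.71 kb upstream, at 471 in sox10 and 76.9 in tfap2B, lies furthest above the line of equal signal among the flanking regions, and the bars of the exon regions are the longest.

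Tfap2B was also compared with input, in a fit of all 6 libraries. Of the 11 flanking regions, 3 were higher in tfap2B and 2 lower, where 28.2% of all tested regions were called, 10.8% higher and 17.4% lower. A fit of placed regions alone called 2178 of at most 13888, with 4 of the 13 higher and 2 lower. In the main fit the higher flanking regions all lay upstream. The strongest, 51067475, differed by 7.23 ± 1.22 (SE, limma adjusted p = 0.00824). Its size turned on the inputs, 1 of which lay there at the lowest value of its library, counted as 1 read and possibly a floor. The difference was 9.47 without input 1 and 5.0 without input 2. The exon regions are described without a test, since the gene was selected with their inputs in view. Their log2 differences were 6.73 ± 1.95 at exon 2 and 5.45 ± 0.98 at exon 4 (SE). Both are counted among the 5 of the 13 regions called higher in this fit, but nothing is read from those 2 calls. At exon 2, where input 2 also lay at its lowest value, the difference was 10.19 without input 1 and 3.28 without input 2.

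The regions at 51086640 and 51073840 had log2 differences of 4.39 ± 0.80 and 2.93 ± 0.83 (SE, limma adjusted p = 0.00942 and 0.034). Their tfap2B signal was below the placed median, at 0.513 and 0.672 times that median for 51086640 and 0.797 and 0.483 times for 51073840, while their inputs had at most 27 reads. The higher values against input at these 2 regions thus came with low input. The regions lower in tfap2B were 51064413, by -1.72 ± 0.46 (SE, limma adjusted p = 0.0287), and 51155935, by -1.74 ± 0.45 (SE, limma adjusted p = 0.0261). Without tfap2B library 1, or without library 2, none of the 13 regions, and 0 of the 25281 in the table, were called by limma in either direction (8379 and 6780 at an unadjusted p under 0.05). Without either sox10 library 4 of the 13 were higher and 0 lower, while calls over the table went from 7122 to 3455 and 3542. The edgeR test called 3 of the 13 higher and 0 lower, and neither exon region was among them.

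Sox10 against input is described only, since the gene was selected on it. In the fit 5 of the 13 regions passed as higher and 2 as lower, beside 40.7% of all tested regions called, 18.4% higher and 22.3% lower. Higher were both exon regions, with log2 differences of 8.44 and 7.50, and 51086640, 51067475 and 51083893 upstream, with 6.97, 6.74 and 5.21. Lower were 51155935 and 51164461, with -1.63 and -1.79. Without sox10 library 2, 1 was higher and 0 lower, and without sox10 library 1 there were 4 and 0. Calls over the table then numbered 665 and 1937, against 10292, so the drop was general. A fit of placed regions alone called 3593 of at most 13888, with 5 of the 13 higher and 2 lower. Sox10 against input shares its inputs with the comparison of tfap2B with input.

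Outside the window, the placed regions whose 6 values were most like those of the exon 4 region were ranked by Euclidean distance on the log2 scale, each library centred on its placed median. The nearest was 49766513 to 49767013 of chromosome 2, at a distance of 3.65, overlapping an exon of ENSGALG00000034312. Next came 153949552 to 153950052 of chromosome 1, intergenic, at 4.92. The exon 2 region of SOX10 itself lay at 5.03, and 2 of 13875 regions were nearer than it. Most of that distance came from input 2, at 0.363 over exon 2, possibly a floor, against 33.7 over exon 4. The order of nearness was not taken without that library. Intergenic regions at 6383 of chromosome 22 and at 19356704 and 41177632 of chromosome 4 followed, at 5.08, 5.56 and 6.05. The median distance of all compared regions was 11.8. This is a likeness over 6 libraries only.

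SOX10 RNA was abundant at HH10, a stage earlier than that of the pull-downs. Its 23526 counts gave 818 CPM, the count scaled to the library total (exact Poisson 95% interval 807 to 828), rank 80 of 24881 genes. Per length the level was 485 TPM, rank 324. The median gene with at least 1 count had 23.0 CPM and 22.7 TPM. With 1 library there is no replicate check, and no gene can be likened to SOX10 by its RNA pattern. In bulk RNA, fewer cells of a type and less RNA per cell cannot be told apart.

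Among the 22 other genes within 100 kb, the CPM were 100 or more in 6, from 1 to below 100 in 6, above 0 but below 1 in 3, and 0 in 7. With 3 counts as the floor, a count of 0 allows up to 0.104 CPM, and the exact Poisson interval used for SOX10 reaches 0.128 CPM there. SOX10 took 38.3% of all counts in the window. The next gene downstream, ENSGALG00000012291, lies 2.93 kb beyond the SOX10 end on the opposite strand. On the scale per length its level was 515 TPM, slightly above that of SOX10, from 3869 counts over 515 bp of exon. ENSGALG00000012296 followed with 326 TPM and ENSGALG00000012272 with 191 TPM. High RNA in the window was therefore not limited to SOX10 per length. Upstream, ENSGALG00000038935 was at 0, next to the strongest flanking region, and ENSGALG00000041823 was at 82.3 TPM.

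**Figure D5:**
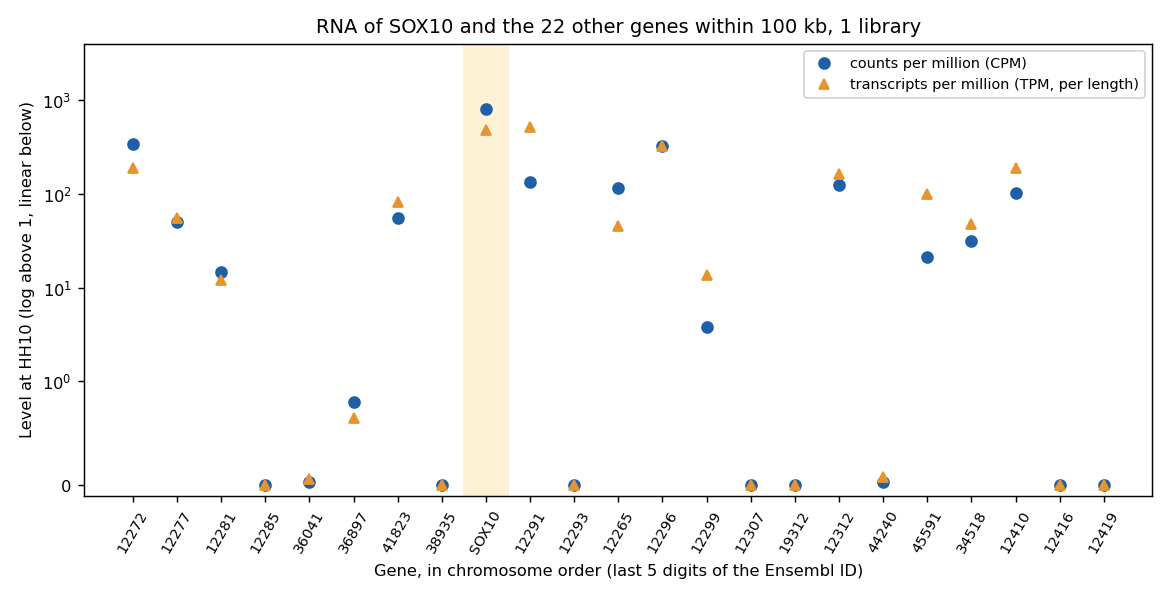
Level at HH10 of SOX10 (shaded) and the 22 other genes within 100 kb, in chromosome order, as CPM and as TPM in 1 library (vertical axis logarithmic above 1 and linear below). SOX10 is highest by CPM (818), while the next gene downstream, ENSGALG00000012291, is highest by TPM (515 against 485 for SOX10).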

How the data were processed

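Gene expression is given as counts for each Ensembl gene, deposited without normalization, as the values and the file headers show. The HH10 column occurs 2 times with the same values and was taken once; a further 21 columns, of samples outside this series, stayed unused. Chromatin values are a deposited signal in which, to a tolerance of 0.01 read, 100.0% of values came out as whole reads once divided by a constant of 0.363 to 2.34, 1 per library. That constant is the lowest value of the library, so a value counted as 1 read may be a floor in place of no reads. The sources used here do not give how the authors set these constants, called the regions or counted by strand, nor whether region starts count from 0 or 1. Per the submitters' processing notes the build was galGal5. The same notes list Bowtie, DiffBind, DESeq2, featureCounts, Subread 1.4.5 and STAR 2.4.2a without saying which step used each.

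The gene, the regions and the tests were set with earlier results of these data known. All 13 regions are named. Limma 3.58.1 (R 4.3.3) with an intensity trend was fitted to log2(scaled reads + 1), which understates changes of low regions, after filterByExpr of edgeR 4.0.16 on recovered reads (25281 regions kept, all 13 members among them). Calls are Benjamini-Hochberg adjusted p under 0.05. The fits of 4 and 6 libraries leave 2 and 3 residual degrees of freedom. Alternatives on recovered reads were DESeq2 1.42.0 and the edgeR quasi-likelihood test, which called 4327 regions for tfap2B against input, 5448 for sox10 against input and 578 for sox10 against tfap2B (limma: 7122, 10292 and 651). TPM used the gene lengths that the authors' table gives. No genome sequence was used here.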

Additional observations from a re-analysis of the deposited data

How the results depend on the processing

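Counts are of the 13 regions called higher and lower, except that windows of 50 kb and 200 kb hold their own sets of regions. Calls over the whole table moved as well, except where only the window changed. For tfap2B against input they went from 7122 to 4327 with edgeR, 7923 with DESeq2's Wald test and 1805 at an adjusted p under 0.01. For sox10 against input they went from 10292 to 5448, 9318 and 2902 in the same order. For sox10 against tfap2B they went from 651 to 0 with all 6 libraries and at an adjusted p under 0.01. For tfap2B against input (5 and 2), edgeR gave 3 and 0, DESeq2's Wald test 1 lower, an adjusted p under 0.01 gave 3 and 0, total reads 0 lower, DESeq2 size factors 1 lower, only the 2 groups 0 lower and a window of 50 kb 1 lower. Leaving out 1 library gave 0 to 6 higher and 0 to 3 lower. For sox10 against tfap2B (1 and 0), all 6 libraries gave 0 higher, an adjusted p under 0.01 gave 0 higher, a window of 200 kb gave 2 higher, and leaving out 1 library gave 0 to 4 higher and 0 to 2 lower. For sox10 against input (5 and 2), edgeR gave 3 and 1, the Wald test 0 lower, an adjusted p under 0.01 gave 3 and 0, total reads 0 lower, DESeq2 size factors 1 lower and a window of 50 kb 0 lower. Leaving out 1 library gave 1 to 6 higher and 0 to 3 lower. The cause was not tested. A leave-one-out fit assumes that the lone library of a group varies like the others. SOX10 RNA was 927 CPM with the total taken without the 100 genes with the most counts, among which SOX10 itself falls at rank 80.

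With the replicate number as a block, the counts were 4 and 2 for tfap2B against input, 1 and 0 for sox10 against tfap2B and 5 and 2 for sox10 against input. Over the whole table, calls in these comparisons went from 7122 to 5289, from 651 to 1371 and from 10292 to 7978. Libraries of the same number deviated together with correlations of 0.05 (sox10 and tfap2B), -0.03 (sox10 and input) and -0.27 (tfap2B and input) over tested regions, so the numbers were not taken as pairs. A block with the input numbers crossed, added after seeing the data, gave 6 and 2 for tfap2B against input, with 7971 calls over the table. The 5 regions followed were both exon regions and the upstream regions with the highest mean sox10 signal (51067475, 51083893 and 51086640). That signal also enters sox10 minus tfap2B, and the gene was selected on its sox10 values, so a steady sign is a description. The sign of the log2 difference at these regions did not change under any alternative run. This holds for tfap2B against input and sox10 against tfap2B. Other filters, blocks, thresholds and libraries outside the comparison cannot alter that difference, so those runs say nothing about its sign. Single libraries were not set against each other in these runs. Between libraries numbered 1, sox10 lay below tfap2B at both exons (ratios 0.658 and 0.813).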
